A study of Drosophila melanogaster with 2 samples.

Results

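The microRNA (miRNA) genes of the fly were examined for peaks of Rough, a homeodomain transcription factor. They were taken as all genes with a pre_miRNA transcript on arms 2L, 2R, 3L, 3R, 4 and X of the dm6 annotation, which gave 260 of the 17415 annotated genes on those arms. The data were peak lists from chromatin immunoprecipitation followed by sequencing (ChIP-seq) of whole embryos, aged 0 to 24 h, of the strain ro-GFP, which carries a transgene for a Rough-eGFP fusion that was precipitated through its GFP tag. The 2 libraries were separate biological replicates of this 1 group, with no second genotype, treatment or age and no input sample analysed here. Chromatin was sonicated to 200 to 800 bp per the labels, which state neither the number of embryos per library nor the insertion site of the transgene. Peak lists hold no expression values, so the embryonic label could not be checked against marker genes, and a site bound in few cells cannot be told apart from one bound weakly in many.

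A miRNA is cut from a hairpin in a longer transcript and, loaded into an Argonaute protein, lowers the output of messenger RNAs that pair with its seed, the stretch near its 5′ end. Many fly hairpins lie in clusters that are transcribed together or inside introns and exons of other genes, so the start site that drives a hairpin can be far from it. Rough is known for its role in the eye, where it acts in photoreceptor specification behind the morphogenetic furrow, and homeodomains commonly contact sites built around the letters TAAT.

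The mature sequences below are those that the results turn on, from hairpins with a peak or sharing a peak, so that genes with the same seed can be recognised in the values that follow. They were read from the RefSeq genome, Release 6 (dm6 coordinates), and all 260 genes had a RefSeq mature sequence, 481 in all. Capitals mark the seed, bases 2 to 8.
mir-279, 3p arm, chr3R:29215651-29215672, plus strand: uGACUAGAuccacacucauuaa
mir-92a, 3p arm, chr3R:25646560-25646581, plus strand: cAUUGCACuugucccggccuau
mir-ban, 3p arm, chr3L:642259-642281, plus strand: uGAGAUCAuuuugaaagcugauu
mir-375, 3p arm, chr2L:857596-857617, plus strand: uUUGUUCGuuuggcuuaaguua
mir-282, 5p arm, chr3L:3251038-3251061, plus strand: uAGCCUCUacuaggcuuugucugu
mir-13a, 3p arm, chr3R:15417548-15417569, minus strand: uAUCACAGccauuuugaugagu
mir-13b-1, 3p arm, chr3R:15417412-15417433, minus strand: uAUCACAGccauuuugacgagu
mir-2c, 3p arm, chr3R:15417761-15417783, minus strand: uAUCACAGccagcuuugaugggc
Seed GACUAGA was shared by 3 genes, mir-279, mir-996 and mir-286, of which 1, mir-279, had a peak in the optimal list within 2 kb. Seed AUUGCAC was shared by 6 genes (mir-92a, mir-92b and mir-310 to mir-313), with a peak at mir-92a alone. Seed AUCACAG was shared by 14 genes of the mir-2, mir-5, mir-6, mir-11, mir-13 and mir-308 kind, with a peak in the optimal list at mir-308 alone. Such a peak lay near 5.0% of all miRNA genes and 15.0% of all genes, so nothing about seeds is read from these counts. They also depend on the distance and the list. The mir-996 hairpin lay 2738 bp from the mir-279 summit, and mir-13a, mir-13b-1 and mir-2c had a peak in the conservative list.

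The windows that follow hold the sequence under 4 of the summits, the strongest peak near any miRNA gene and each of the 3 peaks whose window held TAATTA. Each is 101 bases, 50 on either side of the summit, on the plus strand of dm6 from the RefSeq genome, with TAAT and its reverse complement ATTA in capitals.
mir-279, chr3R:29214396-29214496: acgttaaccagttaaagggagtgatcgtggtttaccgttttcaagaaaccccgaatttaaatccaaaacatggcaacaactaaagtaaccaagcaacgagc
mir-ban, chr3L:642644-642744: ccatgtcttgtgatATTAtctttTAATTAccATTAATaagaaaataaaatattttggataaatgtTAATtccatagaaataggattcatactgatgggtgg
mir-9377, chrX:12665619-12665719: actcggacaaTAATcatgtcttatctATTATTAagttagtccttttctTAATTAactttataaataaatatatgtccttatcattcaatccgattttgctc
mir-2496, chrX:2009596-2009696: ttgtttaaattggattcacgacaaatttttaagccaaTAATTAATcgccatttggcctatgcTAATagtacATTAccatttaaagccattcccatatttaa
The mir-279 window lies between genes and held no TAAT on either strand. The mir-ban window lies in an exon of the non-coding host transcript and held 6 copies of TAAT, counted on both strands with overlaps. The mir-9377 window lies in an intron and the mir-2496 window between genes, with 5 copies each. TAATTA, which reads the same on both strands and contains both TAAT and ATTA, was in 3 of the 16 windows at miRNA genes (18.8%) and in 193 of all 1882 windows of the list (10.3%). TAAT was in 11 of the 16 (68.8%) and in 1438 of the 1882 (76.4%). The median share of A and T was 64.9% at miRNA genes and 67.3% in all windows. Such matches describe letters only, and no test of these shares was made.

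The comparison asked how often, and how strongly, Rough-eGFP peaks lay at miRNA genes. In the optimal list of peaks over both replicates, 13 of the 260 miRNA genes (5.0%, 95% Wilson interval 2.95 to 8.37%) had a summit in the hairpin or within 2 kb of it. Among all 17415 genes the share was 15.0%. These genes were mir-279, mir-ban (the growth regulator bantam), mir-92a, mir-308, mir-375, mir-282, mir-9377, mir-4981, mir-9378, mir-4968, mir-955, mir-1012 and mir-2496. They stood in 13 separate clusters when hairpins within 10 kb were joined (198 clusters, 27 of them with several genes that together held 89), so no peak was counted for several neighbours. No test was made of this list, and the interval covers counting error only.

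A hairpin has a median length of 92 bp (50 to 174 bp) and the median gene on the arms 1734 bp, so a 2 kb margin gives a miRNA gene less sequence in which to meet a summit. With a window of the same length for every class, 2 kb on either side of the annotated 5′ end, 12 miRNA genes (4.62%, 2.66 to 7.89%) held a summit, against 10.1% of all genes. Protein-coding genes stood at 10.7%, other non-coding genes at 8.02%, tRNA genes at 6.55% (4.23 to 10.01%) and snoRNA genes at 16.4% (12.4 to 21.2%). The interval of the miRNA genes overlapped those of the tRNA genes and of the other non-coding genes and lay below those of protein-coding and snoRNA genes. The 5′ end of a hairpin is the cut end of a processed RNA and not a transcription start, so the windows do not cover the same kind of site.

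**Figure D1:**
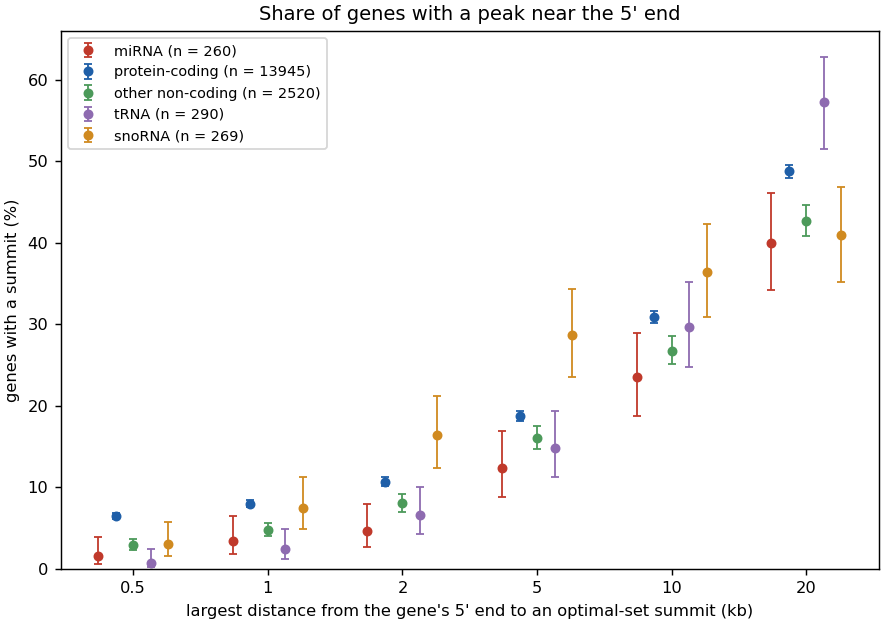
Share of genes (%) with an optimal-list summit within a given distance of the annotated 5′ end (kb), for 5 gene classes. Points are shares and bars 95% Wilson intervals. miRNA genes go from 1.54% at 0.5 kb to 40.0% at 20 kb and lie below protein-coding genes at each distance plotted.

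miRNA genes had a lower share than all genes and than protein-coding genes at each distance, as the plot of shares by distance shows, while the order of the other classes changed with distance. tRNA genes, for example, were below miRNA genes within 500 bp (0.690%) and 1 kb (2.41%, against 3.46% of miRNA genes). Within 500 bp of the 5′ end, 4 miRNA genes (1.54%) had a summit against 5.70% of all genes. Within 5 kb there were 32 (12.3%) against 18.2%, and within 20 kb there were 104 (40.0%) against 47.5%. The median distance from a 5′ end to the nearest summit was 26961.5 bp for miRNA genes, 21859 bp for all genes, 26226 bp for other non-coding genes, 18204 bp for tRNA genes and 32859 bp for snoRNA genes.

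The replicates, whose peaks were also called and thresholded separately, gave different counts. Replicate 1 had a peak within 2 kb of 12 miRNA genes (4.62%, against 11.6% of all genes), and replicate 2 of 6 (2.31%, against 10.3%). Both lists held a peak at 5 miRNA genes (1.92%, 0.824 to 4.42%), against 7.76% of all genes. These 5 were mir-279, mir-9377, mir-4981, mir-92a and mir-282. Of the 16 optimal peaks at miRNA genes, 6 were in both replicates' lists (37.5%), 8 in that of replicate 1 only, 1 in that of replicate 2 only and 1 in neither. An optimal peak counted as in a list if any of its bases overlapped a peak there. The 2 overlapping optimal peaks at mir-375 were thus both matched to the same peak of replicate 1. The share in both was near the 39.6% of all 1882 optimal peaks on the arms.

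The optimal list gives each peak a signal value, the authors' measure of its strength, which ranks peaks within a list. The 16 peaks at miRNA genes had a median of 120.5 (quartiles 94.1 and 161, range 9.21 to 413), and all peaks on the arms had a median of 102 (quartiles 77.1 and 152). Of the 16, 10 were at or above the median of the list. In the replicates' own lists the medians at miRNA genes were 79.4 in replicate 1 (peaks at 12 genes) and 69.4 in replicate 2 (peaks at 6 genes). All peaks on the arms had medians of 70.0 and 65.6. The middle values at miRNA genes thus lay slightly above those of each list as a whole, with few genes behind them and ranges that overlap widely.

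**Figure D2:**
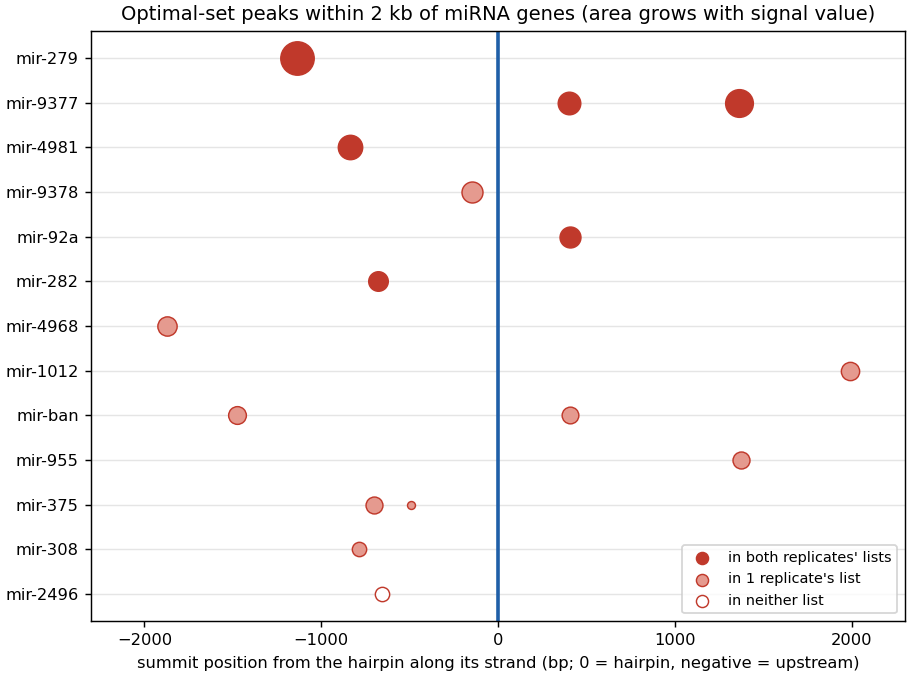
Position of the 16 optimal-list summits from the hairpin (bp along the hairpin's strand, negative upstream) for the 13 miRNA genes, ordered by signal value. The area of a point grows with the signal value and its fill shows in how many of the replicates' own lists the peak was. No summit lay in a hairpin, and the strongest, at mir-279, lay 1139 bp upstream.

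Of the 16 summits, 10 lay upstream of the hairpin, 6 downstream and 0 inside it, at a median distance of 743.5 bp, as the map of summits shows. Summits lay within 500 bp of an annotated start of another gene in 7 of 16 cases (43.8%), close to the 46.0% of all optimal peaks on the arms. The q-value, the authors' false discovery rate of a peak against background, was above 0.05 for 7 of the 16 (43.8%) and for 53.5% of all optimal peaks on the arms. The genes below are described in turn, first those with well-known roles.

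mir-279, which in the fly restrains the making of carbon dioxide-sensing neurons, had the strongest peak near any miRNA gene. The hairpin lies at chr3R:29215585-29215684 in an exon of the non-coding gene lncRNA:CR31044, which also holds mir-996, a miRNA with the same seed. The peak at chr3R:29214314-29214570 had a signal of 413 and rank 67 of 1969 (q = 0.0345). Its summit, in the window printed above, was 116 bp upstream of the start of lncRNA:CR31044 and 1139 bp upstream of the mir-279 hairpin. The signal was 216 in replicate 1 (rank 73 of 1484) and 171 in replicate 2 (rank 84 of 1113). The peak thus ranked high in all 3 lists and lay at the start of the transcript that carries both hairpins. The mir-996 hairpin was 2738 bp from the same summit, beyond the 2 kb limit, and its strongest candidate within 2 kb had a signal of 51.7.

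mir-ban encodes bantam, which promotes growth and blocks cell death. The hairpin, at chr3L:642208-642288, lies in an exon of lncRNA:CR43334 and had 2 peaks, both inside that gene. The first, at chr3L:640543-640922, had a signal of 106 (rank 924, q = 0.0506) and a summit 1475 bp upstream of the hairpin and 1019 bp into the host. The second, at chr3L:642504-642883, had a signal of 92.1 (rank 1170, q = 0.0704) and a summit 406 bp downstream of the hairpin. Both were in the list of replicate 1 only, with signals of 79.8 and 43.7, where candidates in the ranked list of replicate 2 reached 23.7 and 24.6. Neither was in the conservative list, so the 2 peaks rested mainly on replicate 1.

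mir-92a, which acts in neural stem cells and in the patterning of leg hairs, lies at chr3R:25646506-25646600 in an intron of jigr1, which also holds mir-92b. Its peak at chr3R:25646819-25647198 had a signal of 153 (rank 482, q = 0.0282), with 87.6 in replicate 1 and 55.8 in replicate 2. The summit was 409 bp downstream of the hairpin and 237 bp upstream of a start of jigr1. mir-92b, 4389 bp from this summit, had none within 2 kb.

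mir-308 lies in an intron of RpS23, which encodes a protein of the small ribosomal subunit, and carries the seed of the mir-2 kind. Its peak at chr2R:14216462-14216841 had a signal of 63.9 (rank 1786, q = 0.564) and a summit 25 bp upstream of the RpS23 start and 788 bp from the hairpin. It was in the list of replicate 2 (57.1) and not in that of replicate 1, where the candidate had 12.2. mir-375 lies in an exon of lncRNA:CR45345, and its peak at chr2L:856653-857032 had a signal of 94.7 (rank 1122, q = 0.0631) with a summit 699 bp upstream of the hairpin and 560 bp upstream of the host. It was in the list of replicate 1 (73.3), and the candidate of replicate 2 had 30.8. A weak peak that overlaps it, with a signal of 9.21 and q = 0.857, was also listed. mir-282 lies in an exon of lncRNA:CR43626, and its peak at chr3L:3250153-3250532 had a signal of 132 (rank 625, q = 0.0366), with 79.4 in replicate 1 and 42.6 in replicate 2. Its summit was 251 bp upstream of one start of lncRNA:CR43626 and 679 bp upstream of the hairpin. Of these 3 genes, only mir-282 had its peak in both replicates' lists.

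For the other genes with a peak no role of the miRNA is given here. mir-9377 lies in an intron of Tis11, which encodes an RNA-binding protein that speeds the decay of AU-rich messenger RNAs. Its stronger peak at chrX:12666525-12666711 had a signal of 279.5 (rank 146, q = 0.0228), with 158 in replicate 1 and 114 in replicate 2. The weaker one at chrX:12665586-12665687 had a signal of 181 (rank 351, q = 0.0306), with 102 and 69.4. Both summits lay in Tis11 introns, 1361 and 401 bp downstream of the hairpin and 6095 and 5135 bp from the nearest Tis11 start. mir-9377 was thus the gene with 2 peaks in both replicates' lists, both far from a start.

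mir-4981 lies outside any gene, and its peak at chr2R:8014313-8014490 had a signal of 213 (rank 267, q = 0.0368). The summit was 839 bp upstream of the hairpin and 655 bp upstream of CG14762. Here replicate 2 was the stronger, with 156 against 70.4 in replicate 1. mir-9378, in an intron of CG17124, had the summit nearest to a hairpin, 147 bp upstream, at chr2L:10751895-10752274 with a signal of 154 (rank 476, q = 0.0286). It was in the list of replicate 1 (108) and the candidate of replicate 2 had 42.0.

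mir-4968 lies in an intron of Mob2, a co-activator of a kinase that shapes cells. Its peak at chr3L:11554376-11554755 had a signal of 128 (rank 662, q = 0.0388), 94.5 in replicate 1 and a candidate of 36.6 in replicate 2, with its summit 1873 bp upstream of the hairpin in the same gene. mir-1012, in Lerp, which encodes a receptor that sorts lysosomal enzymes, is one of 34 hairpins that fill an intron from end to end, and the only one of them with a peak. That peak, at chr3R:26859169-26859548, had a signal of 113 (rank 819, q = 0.0449), 64.6 in replicate 1 and a candidate of 48.6 in replicate 2, and its summit lay 1990 bp downstream, just inside the 2 kb limit. Both were above the list's median signal and in the list of replicate 1 only.

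mir-955 lies outside any gene, and its peak at chr3L:3300337-3300716 had a signal of 95.6 (rank 1102, q = 0.0609), 53.6 in replicate 1 and a candidate of 32.5 in replicate 2. The summit was 1376 bp downstream, 441 bp inside CG14968. mir-2496 also lies outside any gene, and its peak at chrX:2009456-2009835 had a signal of 63.8 (rank 1788, q = 0.573), with its summit 654 bp upstream of the hairpin and 282 bp upstream of PIG-K, a subunit of the enzyme that attaches lipid anchors to proteins. It was in neither replicate's own list, and the candidates had 33.9 and 36.1. These were among the weakest of the 13 genes in the optimal list.

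The distance limit decides some of these genes. Just inside it lay mir-1012 at 1990 bp and mir-4968 at 1873 bp. Just outside it lay mir-9383 at 2698 bp (signal 174, 159 bp upstream of CG12241), mir-9373 at 2707 bp (71.0, 369 bp upstream of CG6231) and mir-996 at 2738 bp (413). mir-9382 followed at 2868 bp (245.6, 184 bp upstream of MRP, an ABC transporter) and mir-4946 at 2885 bp (69.7). The peak near mir-9373 had q = 0.334 and was in neither replicate's own list.

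Of the genes with no peak in the optimal list, 3 had one in the conservative list and 1 in a replicate's own list. mir-13b-1, mir-13a and mir-2c, 3 adjacent hairpins of lncRNA:CR45911 with the shared seed printed above, shared their peaks. The stronger, at chr3R:15418926-15419305, had a signal of 67.8 (rank 1469 of 1627, q = 0.425) and a summit 1641, 1500 and 1271 bp upstream of the 3 hairpins, with candidates of 42.0 in replicate 1 and 35.8 in replicate 2. A weak peak that overlaps it, at chr3R:15419167-15419546, had a signal of 11.1 (q = 0.855) and a summit 1882, 1741 and 1512 bp upstream of them. mir-9385 on arm 4 had a peak in the list of replicate 1 alone, at chr4:400802-401157, with a signal of 43.6 and q = 0.0353 and its summit 215 bp upstream, with a weak overlapping peak of signal 7.28 beside it, and replicate 2 held no candidate there. The conservative list shared 11 genes with the optimal list and lacked mir-308 and mir-ban.

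The ranked lists hold far more candidates, with 93400 in replicate 1 and 121684 in replicate 2, most of them below the authors' threshold. A candidate lay within 2 kb of 225 miRNA genes in replicate 1 and of 221 in replicate 2. Both had one at 205 (78.8%), against 88.2% of all genes, 20 genes had one in replicate 1 only, 16 in replicate 2 only and 19 in neither. Most miRNA genes, and most genes of the arms as a whole, thus had a candidate nearby. Among the strongest 20000 candidates of each replicate, both had one within 2 kb of the 5′ end of 56 miRNA genes (21.5%, 17.0 to 26.9%), against 32.3% of all genes, 22.8% of tRNA genes and 45.7% of snoRNA genes.

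**Figure D3:**
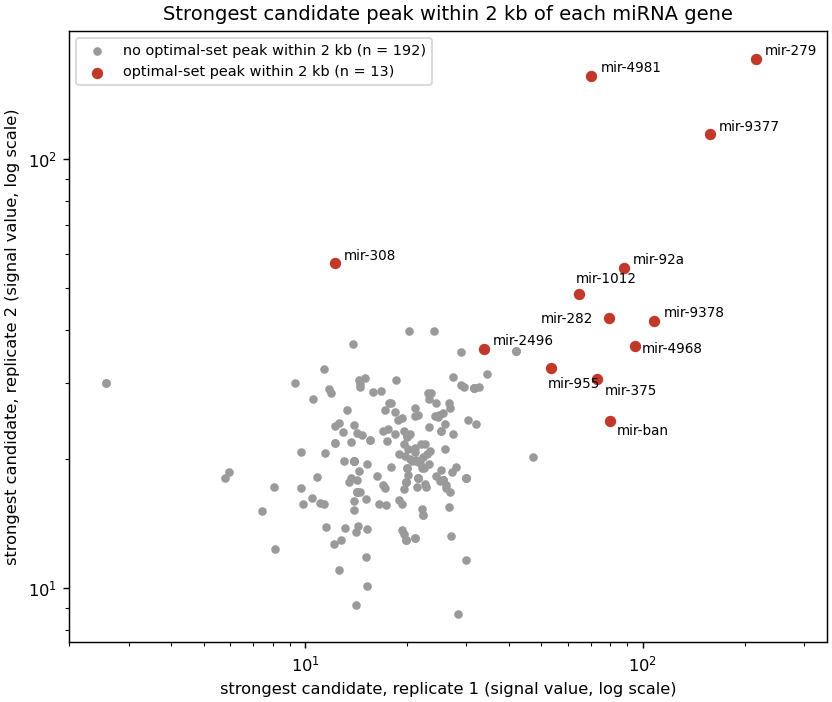
Signal value of the strongest candidate within 2 kb of each of 205 miRNA genes in replicate 1 (horizontal) and replicate 2 (vertical), both on log scales. Red points are the 13 genes with an optimal-list peak, and mir-279 is highest in both replicates. The 192 grey genes form a cloud without a clear slope.

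Across the 205 genes, which share their libraries and in clusters their candidates, the log10 signals of the strongest candidates had a Pearson r of 0.48 and a Spearman rho of 0.30, as descriptions. Without the 13 genes with an optimal-list peak, the 192 others had 0.14 and 0.19. In the ranked list over both replicates, the strongest candidate had a median signal of 34.4 (7.43 to 67.8) at the 208 genes with a candidate and no optimal-list peak, and of 128 (63.8 to 413) at the 13. All 1969 optimal-list peaks are also in this ranked list, from which thresholding chose them. Neither the gap nor the lower correlation without the 13 is therefore a separate result. The highest of the 208 values was that of the mir-2c peak, above the 2 lowest of the 13, mir-308 and mir-2496.

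By position, the genes with a peak divided as follows. Of 82 hairpins in an exon of a gene on the same strand, 4 had a peak (4.88%), and of 100 in an intron of such a gene 6 (6.0%). Of 51 hairpins outside any gene 3 had a peak (5.88%), and of 27 within a gene on the opposite strand only, 0 had one (upper Wilson limit 12.5%). By arm, 4 of 31 had a peak on 3L (12.9%, 5.13 to 28.9%), 3 of 58 on 3R, 2 of 56 on 2L, 2 of 55 on 2R, 2 of 58 on X and 0 of 2 on 4. The intervals of these shares overlap. The same splits were not made for all genes, of which 15.0% had such a peak, so nothing is read from these counts.

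Peaks also lay at the starts of genes that contain a hairpin. Of 182 miRNA genes inside a gene on the same strand, 10 had a summit within 2 kb of the hairpin. In the same set, 21 (11.5%) had an optimal-list summit within 500 bp of a start of that gene, and only 6 of the 21 also had a summit within 2 kb of the hairpin. mir-375 was among the 21 and the 6 only through its weak peak of signal 9.21 (q = 0.857), 353 bp upstream of its host. For the other 15 the summit was 2698 to 19160 bp from the hairpin, with a median of 4819 bp. Counting either kind, 28 of the 260 miRNA genes (10.8%) had a peak. This is below the 15.0% of all genes with a summit in the gene or within 2 kb of it. It is near the 10.1% of all genes with a summit within 2 kb of the annotated 5′ end. Neither rule counts a second gene's start, so nothing is read from the order of these shares. Of the 165 host genes, 18 had such a start peak (10.9%), against 6.73% of all genes other than miRNA genes. Among protein-coding hosts 15 of 128 had one, against 7.63% of protein-coding genes, and among other hosts 3 of 37. The hosts chk and CG45092 share a start and its peak and were counted separately. Hosts were long genes, with a median of 11219 bp against 2166 bp for protein-coding genes, and no test of the difference was made.

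**Figure D4:**
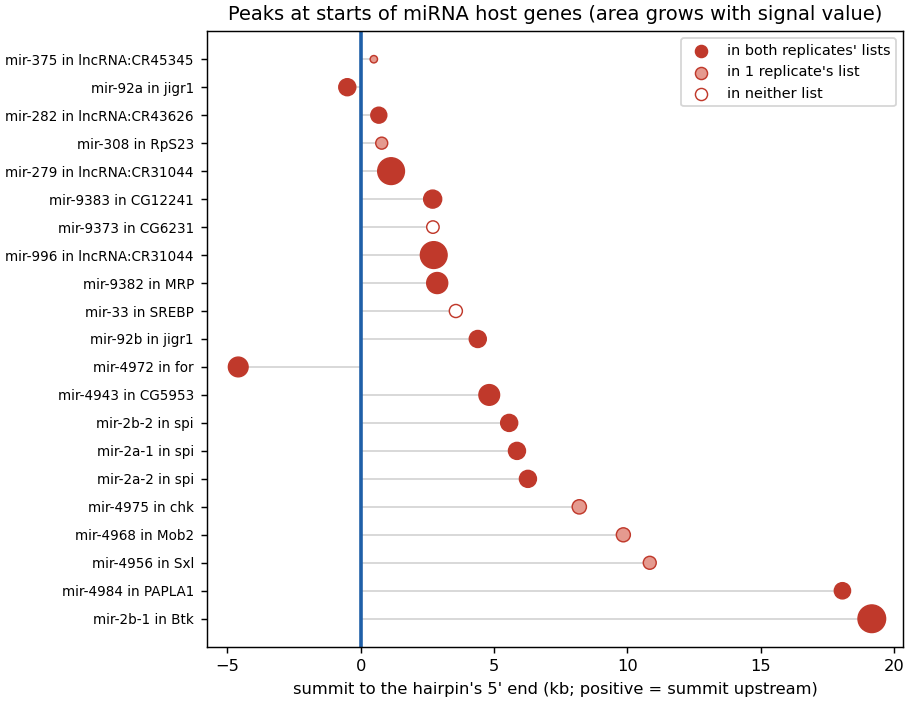
Distance from the hairpin's 5′ end to the optimal-list summit at a start of its host gene (kb, positive where the summit is upstream) for 21 miRNA genes. The area of a point grows with the signal value and its fill shows in how many replicates' own lists the peak was. The farthest is the Btk peak, 19160 bp from mir-2b-1.

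The 21 genes shared 17 peaks, of which several were among the strongest in the list. mir-2b-1 lies in Btk, a non-receptor tyrosine kinase, whose start had a peak of signal 443 (rank 47 of 1969, q = 0.00971), 233 in replicate 1 and 200.1 in replicate 2. mir-2a-1, mir-2a-2 and mir-2b-2 lie together in spi, the gene of the EGF receptor ligand Spitz. The spi start had a peak of signal 153 (rank 483, q = 0.0281), 99.7 in replicate 1 and 55.3 in replicate 2, at 5858, 6269 and 5566 bp from these hairpins. The mir-2 hairpins in both hosts thus had no summit within 2 kb but a start peak found in both replicates.

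Other start peaks in both replicates' lists were those of MRP (mir-9382, signal 245.6), CG5953 (mir-4943, 237), for (mir-4972, 214), CG12241 (mir-9383, 174) and PAPLA1 (mir-4984, 137). for encodes a cGMP-dependent protein kinase and PAPLA1 a phospholipase. The for start with the peak lay 4591 bp downstream of mir-4972, and with mir-92a this was one of 2 exceptions to a summit upstream of the hairpin among the 21. Weaker start peaks were those of chk, a transporter of small organic acids (mir-4975, signal 100.5, replicate 1 only), Mob2 (mir-4968, 96.4, replicate 2 only) and Sxl, the switch gene of sex determination (mir-4956, 78.8, replicate 1 only). The peak at SREBP, the regulator of lipid synthesis whose intron holds mir-33, had a signal of 80.5 and q = 0.157 and was in neither replicate's own list. The same held for the peak at CG6231 (mir-9373), with a signal of 71.0 and q = 0.334. By gene, 14 of the 21 had their start peak in both lists, 2 in neither, and 7 had a q above 0.05. Hairpins that share a peak, such as mir-2a-1, mir-2a-2 and mir-2b-2 in spi, were counted separately here. Of all optimal peaks on the arms, each counted once, 39.6% were in both lists and 53.5% had a q above 0.05. Genes and peaks are unlike units, so nothing is read from these counts.

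The miRNA genes with known functions were grouped by role, 82 genes in 10 groups, of which 4 genes had a peak in the optimal list (mir-279, mir-92a, mir-ban and mir-308). This is close to the share of all miRNA genes (5.0%) and below that of all genes (15.0%), so the groups are described by their values and nothing is read from their counts. The early zygotic cluster, from mir-309 to mir-6-3, which helps clear maternal messenger RNAs, had candidates in both replicates at all 8 genes and no peak. Its strongest candidate, shared by mir-6-1, mir-6-2, mir-6-3, mir-5 and mir-4, had a signal of 34.1, and the nearest optimal summit was 28783 bp from mir-6-3. The 4 miRNA genes of the Hox complexes (mir-993, mir-10, mir-iab-4 and mir-iab-8) had a highest candidate of 41.1 at mir-993 and no peak.

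The let-7 complex (mir-100, mir-let7 and mir-125), which acts at metamorphosis, had no candidate in replicate 2 within 2 kb and one of 8.0 in replicate 1. mir-1, the muscle miRNA, had candidates of 15.9 in replicate 1 and 28.7 in replicate 2 and no peak. Among the 9 neural and sensory genes, mir-279 had the only peak, and after it mir-996, mir-34 and mir-124 had candidates of 51.7, 33.2 and 19.3. In the ranked list over both replicates, mir-100, mir-let7 and mir-125 had candidates of 24.3, 12.4 and 35.6, and mir-1 one of 31.0. The median of genes without a peak was 34.4 in that list. Of the named genes of these groups, mir-279, mir-996, mir-993 and mir-125 were above it. In the replicates' own ranked lists this median was 19.9 and 19.8, with mir-1 below it in replicate 1 and above it in replicate 2.

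**Figure D5:**
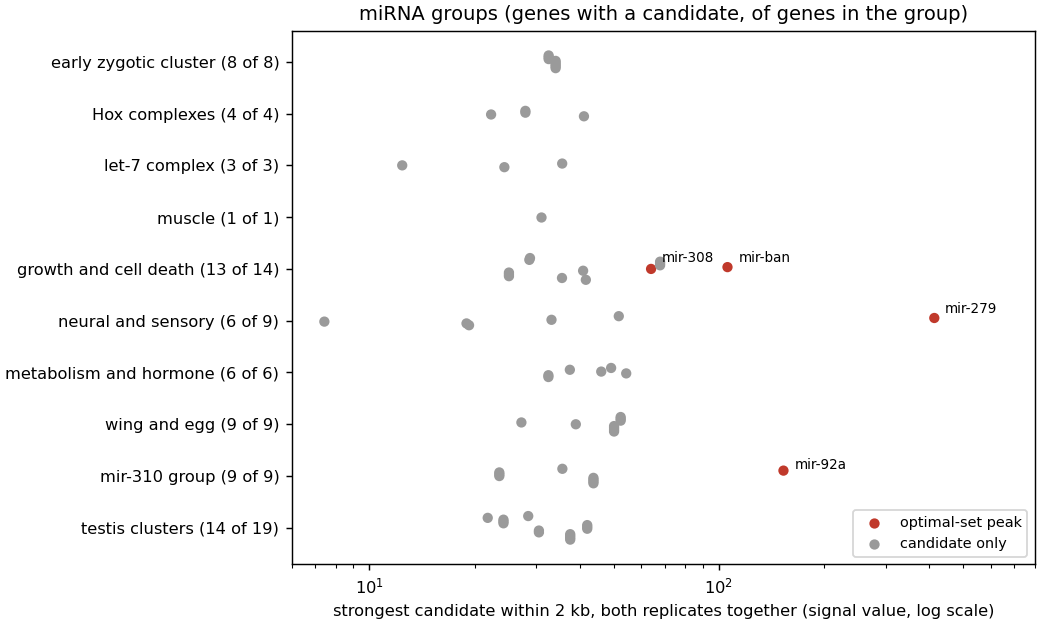
Signal value of the strongest candidate within 2 kb in the ranked list over both replicates (log scale) for the miRNA genes of 10 groups by role. Red points have an optimal-list peak. Numbers give the genes with a candidate of the genes in the group, and points at one value share a candidate.

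Growth and cell death, the group of bantam, mir-14 and the mir-2 kind, had peaks at 2 of 14 genes, mir-ban and mir-308, and 3 in the conservative list, the mir-13a, mir-13b-1 and mir-2c hairpins. None of the 14 had a peak in both replicates' own lists. Among the 6 genes of metabolism and hormone response, mir-278 (54.3), mir-277 (49.1), mir-8 (46.0) and mir-33 (37.4) had the highest candidates, and none had a peak. The nearest optimal summit to mir-8 was 3075 bp away.

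The 9 wing and egg genes had no peak, with 52.3 as the highest candidate, shared by mir-283, mir-304 and mir-12. In the mir-310 group, which holds mir-92a and mir-92b, the candidate shared by mir-310, mir-311, mir-312 and mir-313 had 43.7, against 153 at mir-92a. The 19 genes of the testis clusters had no peak, and 5 of them had no candidate in the list over both replicates. In the plot of groups, mir-279, mir-92a and mir-ban had the highest values of their groups. mir-308 was below the candidate shared by mir-13a, mir-13b-1 and mir-2c. Thresholding chose the optimal-list peaks from this same ranked list, so high values at the 4 genes with a peak are not a separate result.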

How the data were processed

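The deposited files were peak lists on dm6 from 2 libraries, called per replicate and over both, per the file headers and the labels. Which aligner and peak caller made them is not given in the sources used here. Per the labels, the lists were ranked and thresholded by the irreproducible discovery rate (IDR). Each deposited peak has a score, a signal value whose scaling is not stated, a −log10 q-value (named log10 where it dips below 0) and, in ranked lists, a −log10 IDR. Read totals were not analysed here, so depth is unknown. The 16 columns of single-replicate values in the lists over both replicates matched no sample label and were not used.

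Members were genes with a transcript of biotype pre_miRNA in the Ensembl annotation (release 115, BDGP6.54), whose gene biotype is ncRNA, and 2 on rDNA sequence fell outside the rule. Transposable elements and pseudogenes were left out of all genes. A peak was placed by its summit, and placing was tested on simulated data. Named were every miRNA gene with a peak, the 5 nearest misses, genes with a peak in another list only, up to 4 per role group by strongest candidate, and the host and nearest-start genes. Further genes sharing a candidate, seed or host with these, and the start-peak hosts, were named after their values were seen. Members and lists were chosen with earlier results of these data known. Genes were joined into clusters at 10 kb, starts were matched within 500 bp, and intervals are 95% Wilson intervals, which cover counting error only. With 1 group no test between groups was possible. Alternatives were other lists, distances, host rules and single replicates, and leaving out peaks with q above 0.05, overlapped peaks and the start-peak alternatives were added after the data were seen. Python 3.11.15 was used with numpy 2.4.6, pandas 2.3.3, scipy 1.17.1 and matplotlib 3.10.9.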

Additional observations from a re-analysis of the deposited data

How the results depend on the processing

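The count of 13 miRNA genes with a peak, and of 13 clusters, ranged from 6 to 12 with one replicate's own list, where replicate 2 alone gave 6. It was 0 with the summit inside the hairpin, 5 within 500 bp and 34 within 5 kb (31 clusters), and 8 without peaks of q above 0.05, where mir-375, mir-308, mir-ban, mir-955 and mir-2496 were lost. All genes changed from 15.0% to 5.25% inside the gene, 23.1% within 5 kb and 8.79% without those peaks. miRNA genes stayed below all genes in each of these. The rule covers the gene's own span, with a median of 92 bp for miRNA genes and 1734 bp for all genes. Hairpins thus have less sequence in which to meet a summit, most of all inside the gene, so nothing is read from that setting. The conservative list gave 14 genes in 12 clusters. The count in both replicates' lists, 5, was 2 within 500 bp and 18 within 5 kb. The median signal of 120.5 was 69.4 to 79.4 in the replicates' own lists, which have their own scale, and 153, 113 and 128 within 500 bp, 1 kb and 5 kb. With protein-coding hosts only, 6 genes with a peak were inside a host and 7 outside, in place of 10 and 3. Candidates in both replicates were at 57 genes among the strongest 20000 and at 100 within 500 bp, in place of 205. The 21 host-start genes were 14 to 25 under their alternatives. No paired analysis was possible because there is 1 group. Limits are the absence of an input here, 2 libraries, unknown depth and whole embryos.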
